A study of Mus musculus with 2 samples.

Results

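The 9 genes described here form a list named for glutamate and glutamine transport and metabolism. They were chosen by symbol from the 32285 genes of the count matrices: the glutamate transporters Slc1a1, Slc1a2 and Slc1a3, the enzymes Glul and Glud1, the glutamine transporters Slc38a1 and Slc38a3, and the amino acid exchangers Slc7a10 and Slc7a11. All 9 were present in both matrices. Glutamate released at synapses is cleared from the extracellular space by sodium-dependent transporters, most of it by astrocytes, where glutamine synthetase joins it to ammonia to form glutamine. Glutamine then leaves the astrocyte and is taken up by neurons, which convert it back to glutamate, a loop known as the glutamate-glutamine cycle. The data were single-cell RNA-seq profiles (10x Genomics, 3' end counting of unique molecular identifiers, UMIs) of a glia-enriched suspension from the striatum, the main input nucleus of the basal ganglia, of untreated adult mice. There were 2 libraries of the same kind, labelled as replicates, from mice of strain C57/Bl6J in the sample labels and C57BL/6NTac in the protocol, aged 8 to 10 weeks. The labels give no treatment and name no genetic change for either library, they name the v2 and v3 kits of the 3' assay without saying which library used which, and the number of mice behind each was not given in the sources used here. The comparisons were therefore between cell classes within the libraries, and between Crym-positive and Crym-negative astrocytes.

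After filtering, 6778 cells of library 1 and 5214 cells of library 2 remained (11992 in all), and the median depth of all barcodes was 3852 and 5375 UMIs. Before filtering, 9 barcodes were shared by the libraries. Clusters were rebuilt from genes other than the 9 and named by marker genes, so each class carries the suffix "-like". The classes held 2575 astrocyte-like cells (1505 and 1070 in libraries 1 and 2), 1202 and 1182 oligodendrocyte-like cells by library, 643 oligodendrocyte precursor (OPC)-like cells, 1118 and 1023 microglia-like cells by library, 170 macrophage-like cells, 1408 endothelial-like cells, 555 mural-like cells, 365 neuron-like cells and 1654 neuroblast-like cells. A level is given as CPM (counts-per-million), the UMIs of a gene as a share of all UMIs of its class in 1 library, and 2 values are always library 1 and then library 2. Because the members of a class in 1 library share a suspension, each class counted as 1 value per library. The p-values measure only how far the differences between classes varied between these 2 libraries, a spread that may be technical. A shift common to all classes of a library was taken out by the fit of the classes, and the spread was estimated over all classes together. The Crym comparison was a separate fit with 1 sum per Crym group and library, so few sums bear on its spread. The summed level of 12 astrocyte markers was 18837 and 20450 CPM in astrocyte-like cells, 1472 and 1109 CPM in OPC-like cells, 1174 and 1682 CPM in neuroblast-like cells and 1066 and 653 CPM in neuron-like cells, and no marker was at 0 in any class. At a finer resolution 279 of the 2575 astrocyte-like cells (10.8%; 190 and 89) were named neuron-like, 235 oligodendrocyte-like cells were named OPC-like and 552 of the 1654 neuroblast-like cells were named cycling progenitor-like. Results that changed with the finer names are given under both.

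The genes lie on 8 chromosomes of GRCm38 (mm10), the build of the files, and each is protein-coding. The promoters of Slc1a3 and Slc7a10, whose transcripts were both highest in astrocyte-like cells, are shown because they contrast in base composition. Each is the 250 bases before the RefSeq start (GRCm38.p6), 5' to 3' on the gene's strand, at chr15:8710808-8711057 (minus strand) for Slc1a3 and chr7:35186135-35186384 (plus strand) for Slc7a10, and capitals mark a TATA box (TATAAA or its reverse complement TTTATA) or a GC box (GGGCGG or its reverse complement CCGCCC).
Slc1a3: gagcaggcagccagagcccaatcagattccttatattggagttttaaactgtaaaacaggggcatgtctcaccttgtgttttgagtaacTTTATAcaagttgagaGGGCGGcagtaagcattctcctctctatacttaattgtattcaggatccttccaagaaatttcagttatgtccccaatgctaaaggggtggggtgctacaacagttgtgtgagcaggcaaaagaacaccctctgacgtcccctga
Slc7a10: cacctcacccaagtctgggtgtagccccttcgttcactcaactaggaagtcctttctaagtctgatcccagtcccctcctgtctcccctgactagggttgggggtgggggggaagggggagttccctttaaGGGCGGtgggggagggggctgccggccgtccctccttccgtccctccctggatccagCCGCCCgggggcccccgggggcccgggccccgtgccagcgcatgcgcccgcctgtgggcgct
The Slc1a3 window held 44.8% G and C and the Slc7a10 window 69.6%. Of 7 members with a promoter in the RefSeq table, 5 held a GC box, against 32.7% of 32851 mouse promoters of the same length, and 1 (Slc1a3) a TATA box, against 12.4%. None of the 7 windows held a CRE (TGACGTCA, 1.55% of all promoters), an antioxidant response element core (TGACNNNGC, 10.2%), an E-box (CACGTG, 6.02%) or a palindromic NFI site (0.0365%), each searched on both strands. The Slc1a2 window lies 47779 bases inside the gene from its GENCODE start, so the sequence before that start was not searched. The other windows end within 86 bases of the GENCODE start. These are matches of letters only.

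**Figure D1:**
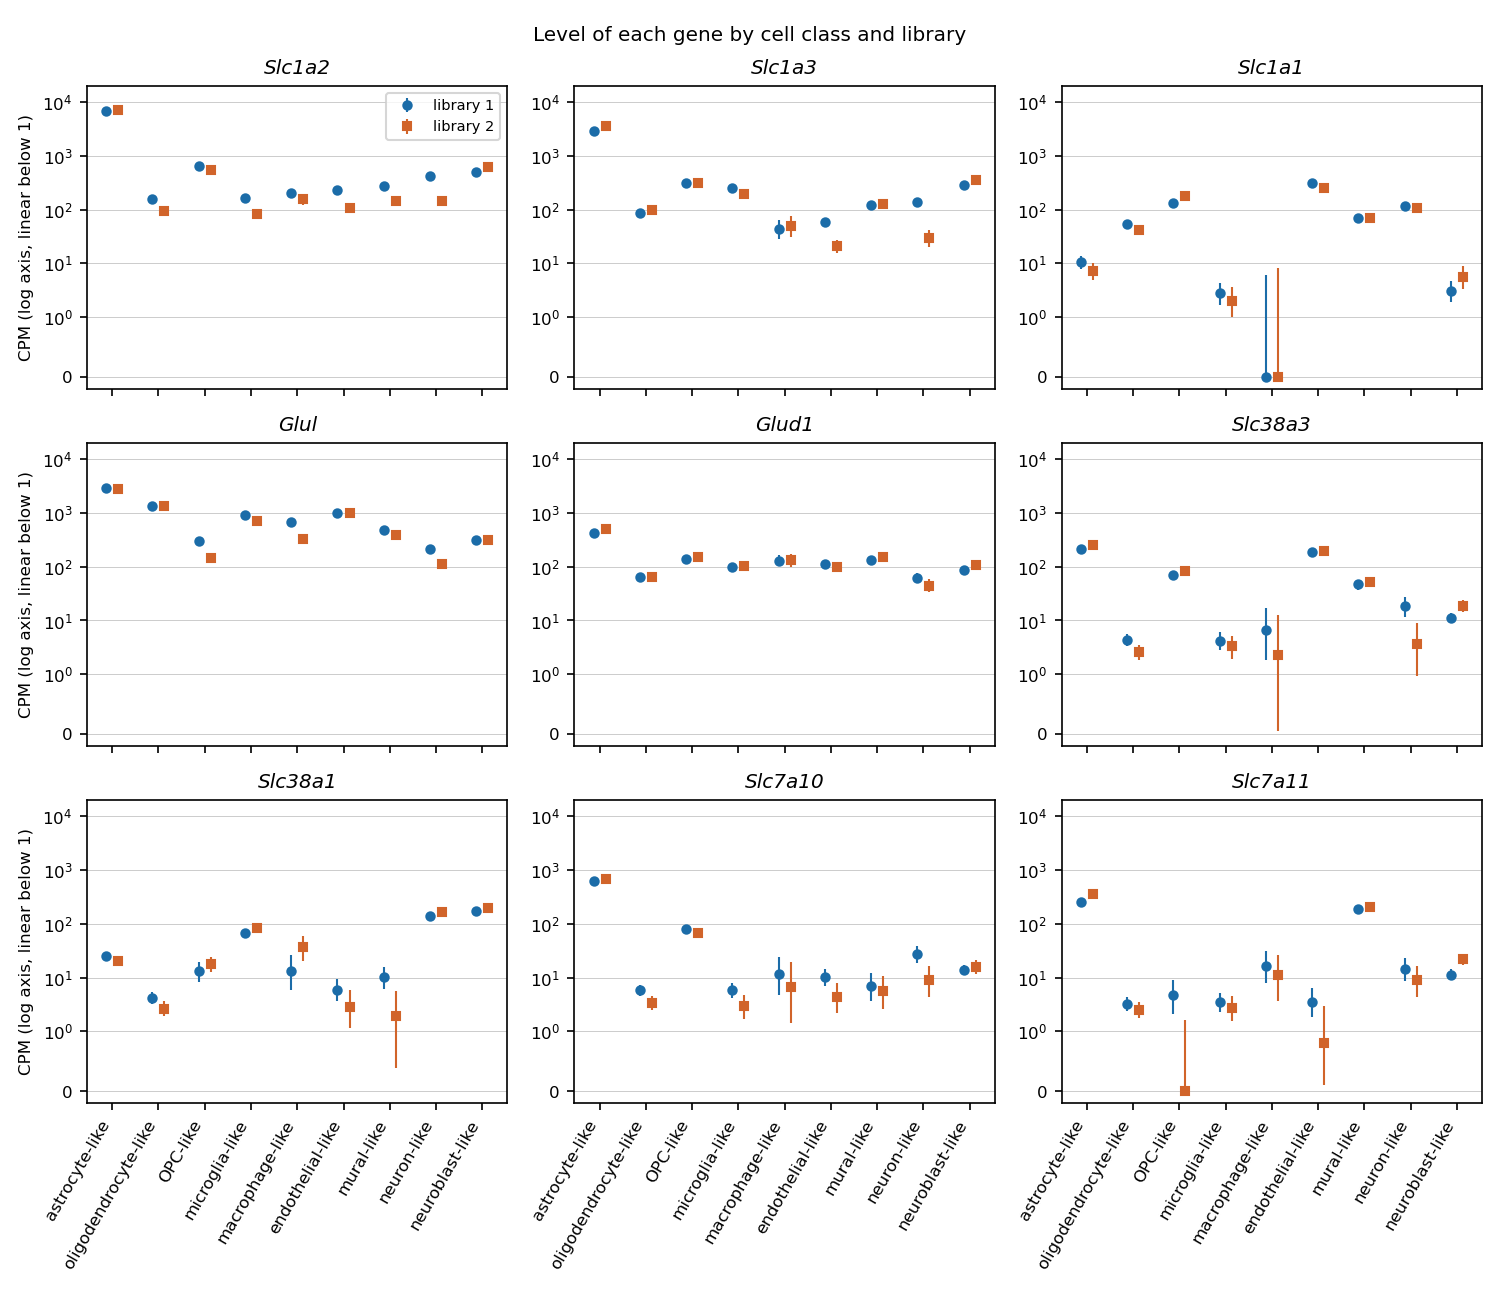
Level of each of the 9 genes (CPM, log axis that is linear below 1) by cell class (x axis) in library 1 (circles) and library 2 (squares), with 95% Poisson intervals that cover counting error only. Slc1a2, Slc1a3, Glul, Glud1 and Slc7a10 were highest in astrocyte-like cells in both libraries, Slc1a1 in endothelial-like cells and Slc38a1 in neuroblast-like cells. Slc38a3 and Slc7a11 were also highest in astrocyte-like cells, but were not called over endothelial-like and mural-like cells respectively.

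The transporters of glial uptake were concentrated in astrocyte-like cells. Slc1a2 (ENSMUSG00000005089, chr2:102658659-102790784) encodes GLT-1, the main glutamate transporter of forebrain astrocytes. Its level in astrocyte-like cells was 6801 and 7042 CPM (mean 6922 ± 170.2, SD, n = 2). Next were OPC-like cells with 645 and 548 CPM and neuroblast-like cells with 493 and 634 CPM, and their ranges overlapped. In neuron-like cells it was 415 and 145 CPM, in mural-like cells 271 and 142 CPM, and in macrophage-like cells 203 and 157 CPM. Endothelial-like cells had 231 and 107 CPM, microglia-like cells 168 and 84.2 CPM and oligodendrocyte-like cells 159 and 93.4 CPM. Within the neuroblast-like class, the finer cluster named cycling progenitor-like had 654 and 795 CPM of Slc1a2, and the neuroblast-like cluster led by Stmn2 207 and 243 CPM. Neighbours among the 6 lowest classes overlapped, whereas the astrocyte-like values stood apart from every other class. Over the other 8 classes the log2 fold change of Slc1a2 ran from 3.69 (SE 0.34, adjusted p = 7.79e-08, neuroblast-like cells) to 5.44 (SE 0.37, adjusted p = 8.64e-10, microglia-like cells) by edgeR's quasi-likelihood test.

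Slc1a3 (ENSMUSG00000005360, chr15:8634124-8710764) encodes GLAST, the other glutamate transporter of astrocytes and of radial glia. Its level in astrocyte-like cells was 2969.5 and 3649 CPM. Neuroblast-like cells (284 and 354 CPM) and OPC-like cells (315 and 310.0 CPM) came next and overlapped, and microglia-like cells followed with 258 and 193 CPM. Levels were 121 and 129 CPM in mural-like cells, 85.6 and 100.2 CPM in oligodendrocyte-like cells and 139 and 29.5 CPM in neuron-like cells. Macrophage-like cells (43.3 and 49.9 CPM) and endothelial-like cells (59.8 and 20.9 CPM) were lowest, and they overlapped. The astrocyte-like class exceeded each of the others, by a log2 fold change of 3.47 (SE 0.41, adjusted p = 9.15e-07) over microglia-like cells up to 6.26 (SE 0.48, adjusted p = 5.51e-09) over endothelial-like cells.

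Most single astrocyte-like cells carried both transcripts. After each cell was thinned to 1000 UMIs, which left 1049 and 921 astrocyte-like cells, 96.2% and 94.1% had a UMI of Slc1a2 and 83.5% and 87.1% a UMI of Slc1a3. At the same depth 14.6% and 7.25% of microglia-like cells had a UMI of Slc1a2, as did 22.5% and 9.05% of endothelial-like cells. The share of thinned astrocyte-like cells with both was 82.3% and 85.2%, and the share with neither 2.57% and 4.02%. Without the cells named neuron-like at the finer resolution, the share with neither was 0.104% and 0.799%, so most cells that lacked both were among those 279. The unthinned shares, at median depths of 1622 and 2365 UMIs, were 89.6% and 92.5% for Slc1a2 and 77.3% and 86.8% for Slc1a3.

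The balance of the 2 transporters differed between classes. The ratio of Slc1a2 to Slc1a3 UMIs was 2.29 and 1.93 in astrocyte-like cells and 2.05 and 1.77 in OPC-like cells, which overlapped. Microglia-like cells were the lowest, with ratios of 0.652 and 0.437, and the endothelial-like ratios of 3.87 and 5.13 were above those of astrocyte-like cells. Against a transcript of a single astrocyte marker the picture was flatter, since the ratio of Slc1a2 to Aldoc (aldolase C, a glycolytic enzyme of astrocytes) lay between 1.51 and 2.76 in all 9 classes and both libraries. Aldoc was also a gene whose profile over the classes was among the closest to that of Slc1a2 (r = 0.99). With Gja1 (connexin 43) as the marker the ratio was 4.71 and 3.58 in astrocyte-like cells, 3.09 and 1.05 in endothelial-like cells and 16.3 and 41.2 in OPC-like cells. Erythroid-like cells (86 and 11 cells), which were not fitted, had a Slc1a2 to Aldoc ratio of 2.13 and 1.77. Their Slc1a2 level is given below. The part of free RNA in the low Slc1a2 levels outside astrocyte-like cells was not tested.

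**Figure D2:**
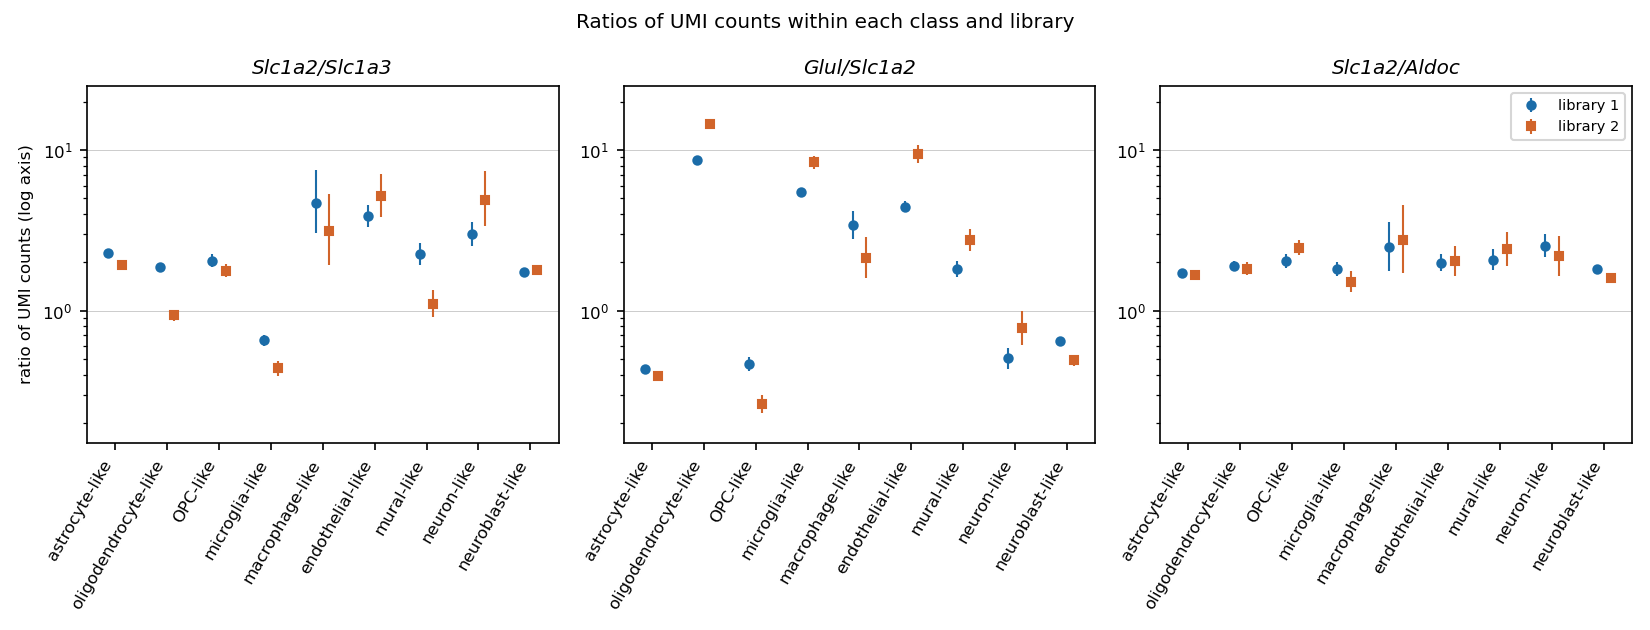
Ratios of UMI counts (log axis) of 3 pairs of transcripts within each class, in library 1 (circles) and library 2 (squares), with exact binomial 95% intervals for counting error. The Slc1a2 to Aldoc ratio lay between 1.51 and 2.76 in all 9 classes, whereas Glul to Slc1a2 ranged from 0.262 to 14.6.

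Slc1a1 had another distribution. It encodes EAAC1, a transporter of glutamate and cysteine known from neurons and epithelia (ENSMUSG00000024935, chr19:28835049-28913960). Endothelial-like cells had the highest level, 315 and 253 CPM, followed by OPC-like cells with 135 and 182 CPM, neuron-like cells with 115 and 107 CPM and mural-like cells with 69.4 and 69.9 CPM. Oligodendrocyte-like cells had 54.5 and 41.2 CPM. No pair of neighbours in this order overlapped between libraries. Astrocyte-like cells had 10.5 and 7.12 CPM, neuroblast-like cells 3.09 and 5.67 CPM and microglia-like cells 2.81 and 2.01 CPM. Macrophage-like cells had no UMI, for which a count of 0 allows up to 5.00 and 6.80 CPM. After thinning, 30.5% and 24.1% of endothelial-like cells had a UMI of Slc1a1, against 0.858% and 0.977% of astrocyte-like cells and 0.0980% and 0.207% of microglia-like cells.

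The astrocyte-like level of Slc1a1 was lower than that of each of the 5 classes above it, with a log2 fold change of -5.04 (adjusted p = 6.51e-11) against endothelial-like cells. The small excess over neuroblast-like, microglia-like and macrophage-like cells, the last a class with no UMI, passed the test as well. Each of these 3 calls was lost without the cells named neuron-like, when the astrocyte-like level was 6.02 and 2.61 CPM, and at the finer resolution the log2 fold change against neuroblast-like cells was -0.24. With the macrophage-like class left out, since a class at 0 gave no finite fit, the level in endothelial-like cells was above the mean of the other classes by a log2 fold change of 3.57 and that in astrocyte-like cells below it (log2 fold change -2.21, adjusted p = 9.08e-07).

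Within the oligodendrocyte lineage, Slc1a1 was unevenly spread. The finer cluster led by 9630013A20Rik, Bmp4 and Gpr17, genes of precursors that are turning into oligodendrocytes, had 409 and 428 CPM. The precursor cluster led by C1ql1 had 120 and 174 CPM, and the 2 oligodendrocyte-like clusters had 4.63 and 4.89 CPM (led by Ermn) and 17.8 and 7.22 CPM (led by Hapln2). The Bmp4 cluster had little Slc1a2 (89.9 and 66.1 CPM) beside the C1ql1 cluster (619 and 543 CPM). The oligodendrocyte-like class contained all 235 cells of the Bmp4 cluster. Its Slc1a1 level was above the mean of the other classes (log2 fold change 1.03, adjusted p = 1.20e-05, macrophage-like cells left out). At the finer resolution, where those cells were OPC-like, Slc1a1 was not called higher, but that fit kept the macrophage-like class at 0. It was not repeated without that class, so the results are not a like comparison. In mural-like cells the cluster led by Acta2 and Tagln, genes of smooth muscle, had 93.3 and 99.0 CPM and the cluster led by Vtn and Kcnj8, genes of pericytes, 7.82 and 8.67 CPM. These cluster values are descriptions, with no test. The mural-like class also held 4938 and 5884 CPM of 8 endothelial markers, against 23133 and 26330 CPM in endothelial-like cells. The part of endothelial RNA in the mural-like Slc1a1 level was not tested.

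**Figure D3:**
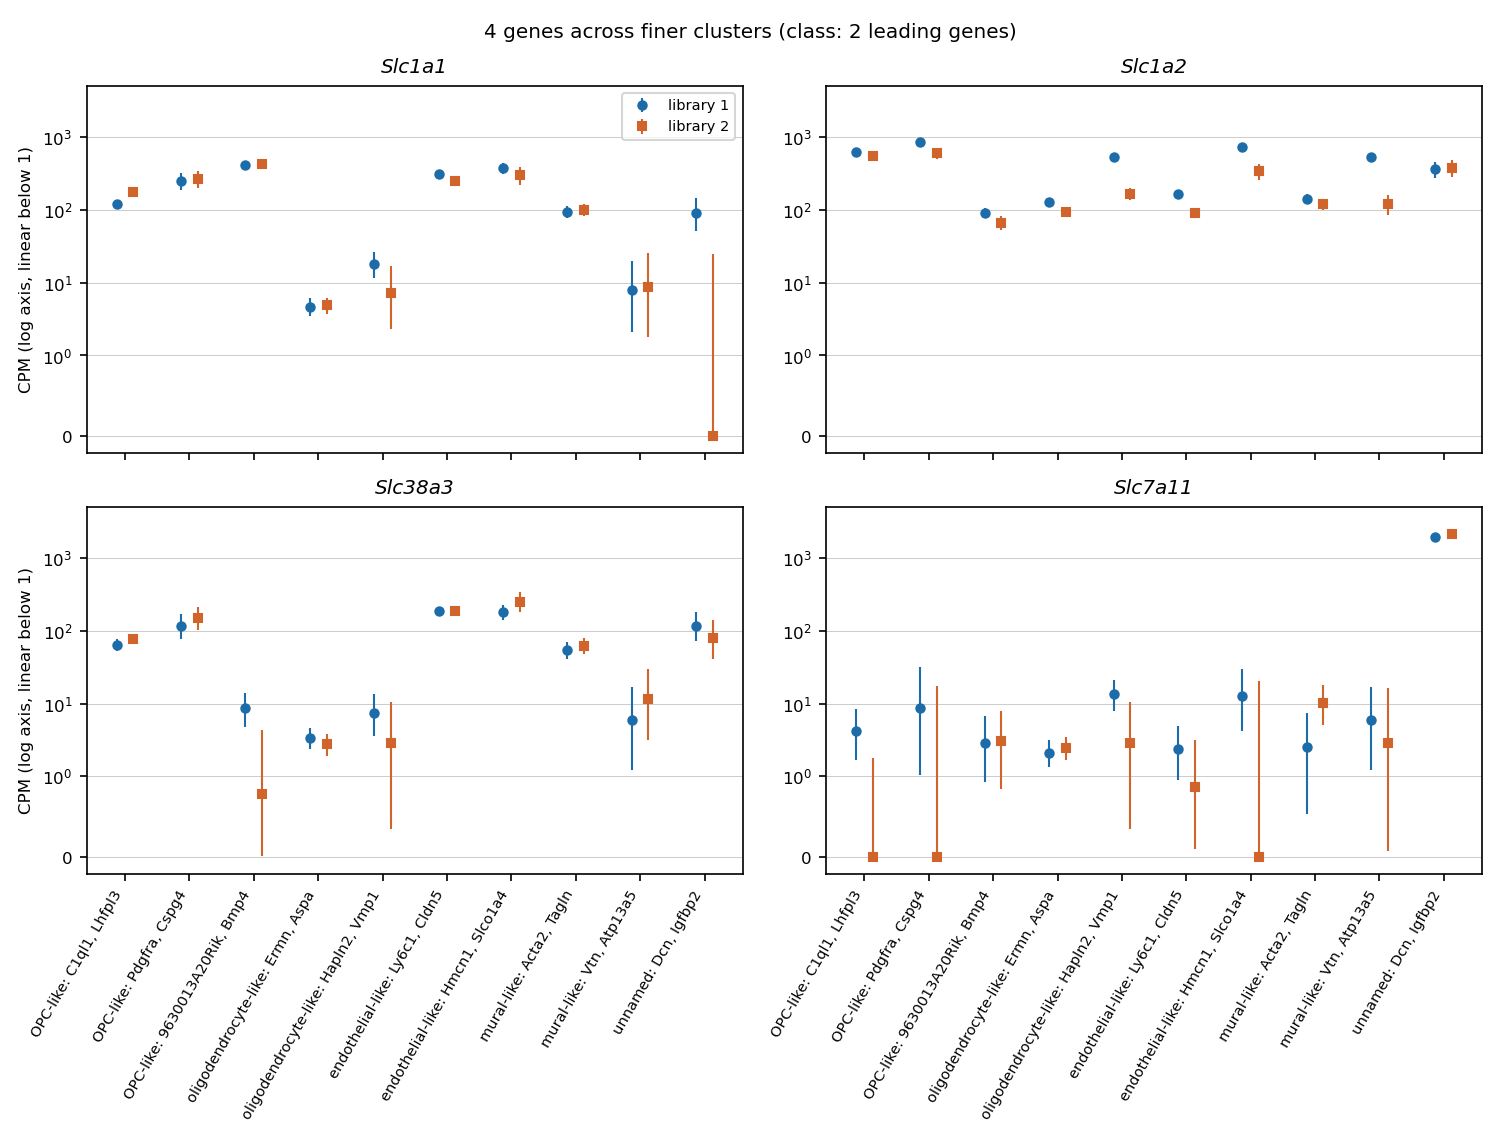
Levels of Slc1a1, Slc1a2, Slc38a3 and Slc7a11 (CPM, log axis that is linear below 1) in 10 finer clusters, named on the x axis by class and 2 leading genes, in library 1 (circles) and library 2 (squares) with 95% Poisson intervals. Slc1a1 peaked in the 9630013A20Rik and Bmp4 cluster (409 and 428 CPM), and Slc7a11 in the unnamed Dcn and Igfbp2 cluster (1916 and 2101 CPM).

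Of the enzymes, Glul was high in astrocytes but was far from confined to them. Glul (ENSMUSG00000026473, chr1:153899944-153909723) encodes glutamine synthetase. Its level was 2961 and 2751 CPM in astrocyte-like cells, 1377 and 1363 CPM in oligodendrocyte-like cells, 1021 and 1012 CPM in endothelial-like cells and 921 and 704 CPM in microglia-like cells. Macrophage-like cells had 692 and 333 CPM and mural-like cells 490 and 392 CPM, with overlapping ranges. Neuroblast-like cells had 320.3 and 311 CPM, OPC-like cells 301 and 144 CPM and neuron-like cells 210 and 113 CPM. The log2 fold change of astrocyte-like over neuron-like cells was 4.47 (SE 0.29, adjusted p = 2.53e-09). Over oligodendrocyte-like cells it was 0.60 (SE 0.24, 95% interval 0.087 to 1.11, adjusted p = 0.0412). This call was lost in 4 alternatives, in which the adjusted p was 0.167 without the replicate block, 0.0827 with clustering at the finer resolution, 0.203 with at least 500 detected genes per cell and 0.113 with under 20% mitochondrial UMIs. The oligodendrocyte-like class held fewer cells with at least 500 genes (606 and 831) and under the mitochondrial limit (599 and 829). The fit scales the sums with TMM factors and CPM does not, so log2 fold changes can differ from ratios of CPM. For astrocyte-like over oligodendrocyte-like cells the median log2 fold change of all genes was -0.073, and 0.287 with library sizes alone. After thinning, 76.8% and 77.5% of astrocyte-like cells had a UMI of Glul, as did 52.9% and 56.0% of oligodendrocyte-like cells, 53.0% and 50.2% of endothelial-like cells and 14.4% and 5.52% of neuron-like cells.

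Glul also varied within classes. The deeply sequenced astrocyte-like cluster (finer resolution, median 7777 UMIs per cell) had 3767 and 3097 CPM and the shallow one (median 1433.5 UMIs) 2088 and 1915 CPM. The oligodendrocyte-like cluster led by Ermn (median 14808 UMIs) had 1660 and 1532 CPM and that led by Hapln2 (median 2530.5 UMIs, 22.4% mitochondrial UMIs) 633 and 472 CPM. Depth moved with the level in both classes, and its part in the difference was not tested. The ratio of Glul to Slc1a2 UMIs was 0.435 and 0.391 in astrocyte-like cells and 8.66 and 14.6 in oligodendrocyte-like cells.

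Glud1 (ENSMUSG00000021794, chr14:34310727-34345265), the mitochondrial glutamate dehydrogenase that interconverts glutamate and alpha-ketoglutarate, had a broad base and a peak in astrocyte-like cells. The level was 431 and 511 CPM there and 142 and 153 CPM in OPC-like cells, whose range overlapped that of mural-like cells (131 and 155 CPM). The other classes lay between 44.8 CPM (neuron-like, library 2) and 132 CPM (macrophage-like, library 2). The astrocyte-like class exceeded each of the other 8, with a log2 fold change between 1.62 and 3.40 (largest adjusted p = 6.81e-07).

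The glutamine transporters were split between cell types. Slc38a3 (ENSMUSG00000010064, chr9:107650634-107669530) encodes SN1, a system N transporter that can release glutamine from astrocytes. Its level was 211 and 257 CPM in astrocyte-like cells and 186 and 193 CPM in endothelial-like cells. In the fit these classes were not separated: the log2 fold change was 0.20 (SE 0.24, 95% interval -0.31 to 0.70, adjusted p = 0.502). OPC-like cells had 70.7 and 84.6 CPM, mural-like cells 46.8 and 52.9 CPM, and the remaining classes at most 18.7 CPM. Endothelial-like cells were above the mean of the other classes by a log2 fold change of 3.42 (SE 0.18, adjusted p = 1.90e-11). Within the mural-like class the Acta2 cluster had 53.9 and 62.3 CPM and the Vtn cluster 5.86 and 11.6 CPM. The part of endothelial RNA in these levels was not tested.

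Slc38a1 (ENSMUSG00000023169, chr15:96571418-96642913) encodes SNAT1, a system A transporter that brings glutamine into neurons. It was highest in neuroblast-like cells (176 and 194 CPM) and neuron-like cells (139 and 163 CPM), whose ranges did not overlap. Microglia-like cells had 67.6 and 84.2 CPM, macrophage-like cells 13.3 and 36.3 CPM, astrocyte-like cells 25.04 and 20.4 CPM and OPC-like cells 13.002 and 17.7 CPM, with at most 10.2 CPM in the other classes. Astrocyte-like cells were below neuron-like and neuroblast-like cells, the lowest log2 fold change being -2.90. Without the cells named neuron-like the astrocyte-like level was 21.7 and 14.2 CPM. After thinning, 17.2% and 14.5% of neuroblast-like cells and 12.8% and 15.95% of neuron-like cells had a UMI of Slc38a1, against 2.67% and 2.61% of astrocyte-like cells.

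The exchangers were low outside astrocyte-like cells, apart from a small cluster with high Slc7a11. Slc7a10 (ENSMUSG00000030495, chr7:35186385-35201114) encodes Asc-1, an exchanger of small neutral amino acids such as glycine and serine. Its level was 629 and 693 CPM in astrocyte-like cells, 79.6 and 66.4 CPM in OPC-like cells and 27.3 and 8.95 CPM in neuron-like cells, with at most 16.02 CPM in the other 6 classes. The log2 fold change over the other classes ran from 3.53 (SE 0.25, adjusted p = 5.97e-09, OPC-like cells) to 6.68 (SE 0.30, adjusted p = 7.44e-12, microglia-like cells).

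Slc7a11 (ENSMUSG00000027737, chr3:49892526-50443614) encodes xCT, which exports glutamate in exchange for cystine. It was at 252 and 357 CPM in astrocyte-like cells and 188 and 207 CPM in mural-like cells, while neuroblast-like cells had 11.4 and 22.03 CPM and the other classes at most 16.7 CPM. The log2 fold change of astrocyte-like over mural-like cells was 0.65 (SE 0.28, 95% interval 0.055 to 1.24) and did not pass the test (adjusted p = 0.0635). The mural-like level came from a finer cluster of 57 cells (35 and 22) led by Dcn, Igfbp2, Igf2, Slc6a13 and Col1a1, collagen and matrix genes among them. The cluster met the naming rule for no class in the marker lists, which held no fibroblast class. It had 1916 and 2101 CPM of Slc7a11, whereas the mural-like class without it had 3.57 and 8.35 CPM. With that cluster set apart the log2 fold change of astrocyte-like over mural-like cells was 5.73 (adjusted p = 4.92e-10). The unnamed cluster was the highest of all finer clusters in Slc7a11, and also had 1313 and 1113 CPM of Glul.

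Of the 9 genes, 5 (Slc1a2, Slc1a3, Glul, Glud1 and Slc7a10) stood higher in the astrocyte-like class than in all 8 others at an adjusted p under 0.05, against 4.02% of the 15291 genes tested. Between 7 and 8 of the 9 passed in the upward direction in every single contrast. The count was 8 over oligodendrocyte-like cells (26.8% of all genes tested were higher), 7 over OPC-like cells (19.3%), 8 over microglia-like cells (28.8%) and 8 over macrophage-like cells (21.9%). The count over macrophage-like cells includes Slc1a1, of which that class had no UMI. It was 7 over endothelial-like cells (26.9%), 7 over mural-like cells (23.9%), 7 over neuron-like cells (25.5%) and 8 over neuroblast-like cells (28%). The median log2 fold change of the 9 genes lay between 2.09 (endothelial-like) and 4.70 (oligodendrocyte-like), beside a median over all genes between -0.07 and 0.18. In the downward direction the 9 genes gave 1 call against oligodendrocyte-like cells (33.8% of all genes were lower), 1 against OPC-like cells (22.6%) and 1 against microglia-like cells (35.2%). They gave none against macrophage-like cells (22.4%), 1 against endothelial-like cells (31%), 1 against mural-like cells (27.6%), 2 against neuron-like cells (23.9%) and 1 against neuroblast-like cells (28.4%). The downward calls were of Slc1a1 and Slc38a1.

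**Figure D4:**
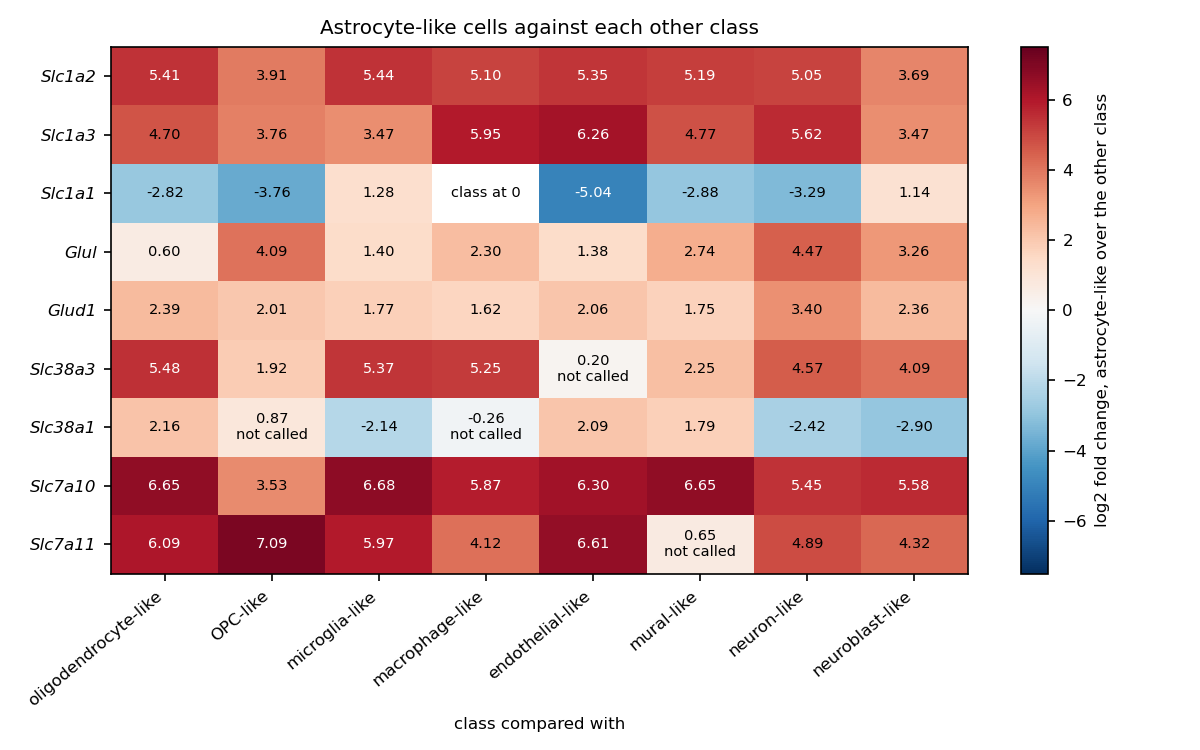
Log2 fold change (colour and printed value) of the 9 genes (rows) in astrocyte-like cells over each of the other 8 classes (columns), from edgeR; values that did not pass the test are marked as not called, and Slc1a1 in macrophage-like cells as a class at 0. Slc1a2, Slc1a3, Glul, Glud1 and Slc7a10 were higher in all 8 columns.

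Against the mean of the other classes, 7 of the 9 genes were higher in astrocyte-like cells (26.6% of all genes). No gene of the 9 was called lower (26.7%), but Slc1a1 could not be fitted with the macrophage-like class at 0, and was lower with that class left out, as given above. In endothelial-like cells 3 were higher (Slc1a1, Slc38a3 and Glul; 26.8%) and 5 lower (19.2%). In neuron-like cells 2 were higher (Slc1a1 and Slc38a1; 26.5%) and 5 lower (29.2%), the latter being Slc1a2, Slc1a3, Glul, Glud1 and Slc38a3. The neuron-like value of Slc1a2 was -0.79 (adjusted p = 0.0156), and it changed sign to 0.42 at the finer resolution and 0.39 with at least 500 genes per cell, neither of which passed the test. That call was also lost with DESeq2, with library sizes alone and without the replicate block. In oligodendrocyte-like cells 2 were higher (Slc1a1 and Glul; 35%) and 6 lower (23.3%). Slc1a1 was not called higher at the finer resolution, in a fit that also held the macrophage-like class at 0. The Slc1a1 calls in endothelial-like, neuron-like and oligodendrocyte-like cells were made against means that hold the macrophage-like class at 0. These calls stayed with that class left out, and such values are given above for endothelial-like and oligodendrocyte-like cells. Glul was higher in oligodendrocyte-like cells by a log2 fold change of 1.86 (SE 0.16, adjusted p = 1.33e-08) and lower in neuron-like cells, at -2.50 (SE 0.24, adjusted p = 8.78e-08).

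Across the 18 class and library sums, which share libraries and depth, the genes of most similar profile were found by Pearson correlation of log2 CPM. For Slc1a2 these were Aldoc, Ntsr2 and Cldn10 (r = 0.99 each) and for Slc7a10 Cxcl14, Hapln1 and Aass (0.97 each). Slc1a3 was closest to Chil1 (0.95), Gm19522 (0.93) and Tom1l1 (0.92), Glud1 to Crot (0.94), and Slc38a3 to Mtmr11 (0.97). Slc1a1 was closest to Gfod1 and Cltb (0.95 each), Glul to Pon2 (0.91), Slc38a1 to Celf2 (0.92) and Slc7a11 to Gjb2 (0.91). Among the 9 genes themselves r was 0.97 for Slc1a2 with Slc7a10 and 0.87 for Slc1a2 with Slc1a3, but 0.33 for Slc1a2 with Glul and -0.09 for Slc1a2 with Slc1a1. These values describe 18 points and have no test.

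The wider pathway was followed in 39 further genes of glutamate, glutamine and related amino acid handling, 36 of which could be tested. In astrocyte-like cells 12 were higher than the mean of the other classes (26.6% of all genes tested were) and 12 lower (26.7%). The highest were Slc25a18, a mitochondrial glutamate carrier (108 and 174 CPM; log2 fold change 4.93, SE 0.21), Prodh, which oxidises proline (266 and 225 CPM; 4.65, SE 0.15), and Slc1a4, a neutral amino acid transporter (114 and 158 CPM; 3.60, SE 0.16). The lowest were Slc38a2, a system A transporter (29.5 and 15.6 CPM; -2.53), and the aspartate-glutamate carrier Slc25a13 (0.894 and 1.84 CPM; -2.31). Slc17a7, a vesicular glutamate transporter of excitatory neurons, was called higher as well (39.3 and 7.57 CPM; 2.54), but its log2 fold change was 0.18 (adjusted p = 0.75) without the cells named neuron-like.

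In endothelial-like cells 8 of the 36 genes were higher (26.8% of all genes tested) and 10 lower (19.2%). Slc38a5, a system N transporter, was at 253 and 420 CPM (log2 fold change 7.36, SE 0.17) and Slc3a2, the heavy chain that partners the Slc7 exchangers, at 852 and 831 CPM (2.26, SE 0.11). Slc7a5, a large neutral amino acid transporter, was at 356 and 933 CPM, with the macrophage-like class at 0. Slc38a2 was at 236 and 175 CPM (1.16, SE 0.13). The lowest were the aminotransferase gene Gpt2 (4.48 and 1.60 CPM; -2.64) and Aldh18a1, which starts proline synthesis from glutamate (2.39 and 0.802 CPM; -1.83).

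In neuron-like cells 11 of the 36 were higher (26.5% of all genes tested) and 6 lower (29.2%), among the higher Slc17a7 (79.5 and 94.0 CPM; log2 fold change 4.72, SE 0.40) and the aspartate aminotransferase Got1 (223 and 208 CPM; 2.36, SE 0.11). Gls2, a glutaminase, was at 10.4 and 8.06 CPM and the glutamate transporter Slc1a6 at 5.62 and 10.7 CPM, with no UMI in endothelial-like and in macrophage-like cells respectively. The lowest were Slc3a2 (100.4 and 84.2 CPM; -1.76, SE 0.17) and the neutral amino acid transporter Slc1a5 (2.41 and 0 CPM; -1.90, SE 0.67). In oligodendrocyte-like cells 14 of the 36 were higher (35% of all genes tested) and 13 lower (23.3%), with glutathione synthetase Gss (86.1 and 85.0 CPM; 3.43, SE 0.11), Slc25a13 (48.0 and 37.6 CPM; 3.27, SE 0.18) and the alanine aminotransferase Gpt (27.9 and 48.4 CPM; 3.12, SE 0.17) highest. Bcat1, a branched-chain aminotransferase, was at 40.8 and 19.1 CPM with the macrophage-like class at 0. The light chains Slc7a7 (0.344 and 0.465 CPM; -2.76) and Slc7a8 (1.38 and 1.93 CPM; -2.47) were lowest. The median log2 fold change of the 36 genes was -0.09 in astrocyte-like cells, where that of all genes was -0.15. Of the 36 genes 31 had UMIs in every class, and their calls in the other 3 classes were 8 higher and 6 lower (neuron-like), 12 and 13 (oligodendrocyte-like) and 7 and 9 (endothelial-like).

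Crym, which encodes mu-crystallin, marks a subset of striatal astrocytes, and the last comparison asked whether glutamate handling differs with its detection. There were 542 and 446 Crym-positive and 963 and 624 Crym-negative astrocyte-like cells. The positive cells were deeper (median 2403 and 4939.5 UMIs per cell, against 1342 and 1807.5), so the contrast was also fitted on cells matched in UMI totals. Most cells that lost the astrocyte-like name at the finer resolution were Crym-negative. Without them 501 and 436 positive and 812 and 545 negative cells remained. Of the 9 genes, 7 were tested, and Slc1a1 and Slc38a1 were detected in under 10% of cells. Slc1a1 was at 4.41 and 3.37 CPM in Crym-positive cells and 16.8 and 11.6 CPM in Crym-negative cells. Slc38a1 was at 14.1 and 11.8 CPM against 36.2 and 30.7 CPM. None of the 7 passed the adjusted p threshold, where 4.43% of 5933 genes did (1.57% higher and 2.87% lower). Before adjustment 2 of them (Slc1a2 and Glul) had an edgeR p under 0.05, as did 1274 of the 5933 genes. DESeq2 also called none after adjustment, and its unadjusted p for Slc1a2 was 0.031.

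Slc1a2 was at 7227 and 7791 CPM in Crym-positive cells and 6365 and 6149.7 CPM in Crym-negative cells, without overlap, for a log2 fold change of 0.23 (95% interval 0.036 to 0.42, adjusted p = 0.172). Glul was at 3171 and 2939 CPM against 2746 and 2528 CPM (0.18, 95% interval 0.001 to 0.36, adjusted p = 0.230). With UMI totals matched the log2 fold change of Slc1a2 was 0.22 (95% interval 0.061 to 0.38, adjusted p = 0.134) and that of Glul 0.045 (95% interval -0.11 to 0.20, adjusted p = 0.813). Without the cells that lost the astrocyte-like name, the log2 fold change was 0.18 for Slc1a2 (adjusted p = 0.166), 0.13 for Glul (adjusted p = 0.326) and -0.028 for Slc1a3. Slc7a10 differed between libraries: it was at 631 and 608 CPM in Crym-positive cells and 627 and 794 CPM in Crym-negative cells (-0.22, 95% interval -0.46 to 0.013). Slc1a3 was at 3053 and 3707 CPM against 2884 and 3581 CPM, for a log2 fold change of 0.03, and the intervals of Glud1, Slc38a3 and Slc7a11 also crossed 0. The alternatives did not agree on the calls. A minimum of 500 genes per cell, and a limit of 20% mitochondrial UMIs, each called Slc1a2 higher and Slc7a10 lower. With no gene filter Slc1a2 (0.31) and Glul (0.26) were called higher, and Slc38a1 (-1.26) and Slc1a1 (-1.60) lower. Slc1a1 had only 10 and 8 UMIs in Crym-positive cells and 37 and 23 in Crym-negative cells. That fit kept the cells named neuron-like at the finer resolution, and their part in the Slc1a1 and Slc38a1 calls was not tested. Thinning to 1000 UMIs left out cells below that depth, and the Crym groups were set anew from the thinned counts. They held 323 and 314 positive and 726 and 607 negative cells. This other split called Slc7a11 lower (-0.53, adjusted p = 0.032) and gave -0.015 for Slc1a2.

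In the wider list 1 of 15 genes tested passed, where 4.43% of all 5933 genes did. Slc25a18 was lower in Crym-positive cells, at 72.4 and 109.7 CPM against 144 and 250.3 CPM (log2 fold change -1.13, SE 0.10, adjusted p = 0.000316). It stood at -1.06 with UMI totals matched (adjusted p = 1.94e-06). Without the replicate block the log2 fold change was -1.14 and the call was lost (SE 0.31, adjusted p = 0.683).

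**Figure D5:**
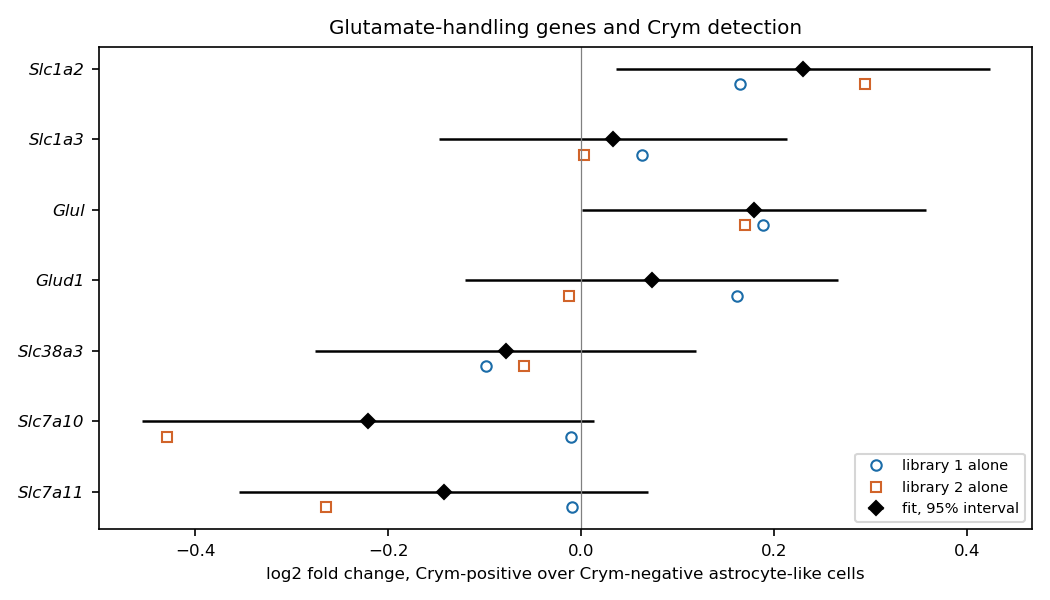
Log2 fold change of 7 genes in Crym-positive over Crym-negative astrocyte-like cells (x axis), from the fit of both libraries with its 95% interval (diamonds) and from library 1 (circles) and library 2 (squares) alone. The intervals of Slc1a2 (0.036 to 0.42) and Glul (0.001 to 0.36) lay above 0 before adjustment, and none of the 7 passed after it. Of all 5933 genes tested, 1274 had an unadjusted edgeR p under 0.05.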

How the data were processed

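The authors deposited 2 matrices of raw UMI counts per gene and cell, made with Cell Ranger 4.0.0 per the file headers and the mm10 genome. Cells were kept from 300 detected genes up, genes if found in more than 3 cells, and Scrublet doublets (1.74% and 2.80%) were removed. The barcodes held 44597660 and 37982720 UMIs in all. Cells were clustered with Seurat 5.3.0 (2000 variable genes, 30 components, resolution 0.08) without the 9 genes, the pathway list, Crym and 97 cell-cycle genes, and named by at least 3 raised markers. Counts were summed per class and library (at least 20 cells) and fitted with edgeR 4.0.16 (quasi-likelihood, TMM, library as a block, Benjamini-Hochberg adjustment over all genes tested; calls at an adjusted p under 0.05). Crym-positive cells had a log-normalised Crym value above 0.25, which here meant at least 1 UMI. Intervals of levels, shares and ratios are exact 95% intervals and cover counting error only, and a count of 0 allows 3 counts. Those of log2 fold changes are approximate 95% intervals, derived from the SE and p-value of the fit. The fits were also run on simulated counts with few changed genes, which does not test them where many genes differ, as between these classes.

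The 9 genes, the marker lists and the pathway list were chosen with earlier results of these data known. Named genes were all 9, the 4 pathway genes with the largest rises and the 2 with the largest falls per class, and the 3 genes most correlated with each of the 9. Alternatives were DESeq2 1.42.0, library sizes without TMM, no block, no gene filter, resolution 0.32, doublets kept, 500 genes, under 20% mitochondrial UMIs, thinning to 1000 UMIs and leaving out each library. Erythroid-like cells (86 and 11) were not fitted. Leaving out the astrocyte-like cells named neuron-like, and the macrophage-like class, was chosen after seeing the data.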

Additional observations from a re-analysis of the deposited data

Results flagged for a closer look

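UMIs of these transcripts were also found in erythroid-like cells and in the cells left unnamed at the finer resolution. In erythroid-like cells, which were not fitted because library 2 held 11 of them, the mean level of the libraries was 392 CPM for Slc1a2 (158 and 625 CPM), 134 CPM for Slc1a3 (37.8 and 231 CPM) and 139 CPM for Glul (115 and 163 CPM). The first 2 means rest largely on the 11 cells of library 2. The 57 cells that could not be named at the finer resolution were part of the mural-like class in the main comparisons. They had 364 CPM of Slc1a2, 734 CPM of Slc1a3, 1213 CPM of Glul, 109 CPM of Glud1, 98.4 CPM of Slc38a3 and 2008 CPM of Slc7a11. Each of these values stood above the level that a count of 0 allows, and no control cells bear on them. The part of free RNA in them was not tested.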

How the results depend on the processing

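Over the alternatives that kept both libraries, 1252 values of single genes and contrasts were computed: 1183 kept their direction and side of the threshold, 23 gained a call, 20 lost one and 26 changed sign. With 1 library left out there was no test, and 224 of 228 values had the sign of both libraries. Of the 9 genes, 5 were higher in astrocyte-like cells than in every other class, and between 4 (no replicate block) and 6 under the alternatives. Of all genes tested, 614 of 15291 were, and between 365 of 11435 (thinned) and 764 of 15290 (mitochondrial limit) under the alternatives. The replicate block treats the classes of a library as paired, since they come from 1 suspension; without it Glul over oligodendrocyte-like cells lost its call.

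Counts moved as follows. Of the 9 genes, 1 was higher in oligodendrocyte-like cells at resolution 0.32, with at least 500 genes and under 20% mitochondrial UMIs, in place of 2. In these settings 5281 of 15661, 5552 of 15666 and 5475 of 15290 of all genes tested were higher. Thinned to 1000 UMIs, the pathway list gave 3 lower in astrocyte-like, 6 higher and 2 lower in neuron-like, 9 higher and 4 lower in oligodendrocyte-like and 5 higher and 3 lower in endothelial-like cells. Of all 11435 genes tested after thinning, 1286 were lower in astrocyte-like cells, and 2278 higher and 1787 lower in neuron-like cells. In oligodendrocyte-like cells 2926 were higher and 1429 lower, and in endothelial-like cells 2504 and 1110. Between Crym-positive and Crym-negative cells 4 of the 9 genes were called with no gene filter, 2 with at least 500 genes, 2 under 20% mitochondrial UMIs and 1 after thinning. Of all genes tested, 449 were higher and 606 lower of 18296 with no gene filter, and 240 and 387 of 6260 with 500 genes. Under the mitochondrial limit 228 were higher and 350 lower of 6300, and after thinning 44 and 85 of 1552.

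Some classes held other cells under the alternatives. With 500 genes the oligodendrocyte-like class held 606 and 831 cells, and a cluster of 929 cells led by 9630013A20Rik and Bmp4 was named OPC-like. Under the mitochondrial limit it held 599 and 829 cells, and a cluster of 1145 cells led by Snhg11 and 9630013A20Rik was named neuron-like. Neuron-like cells numbered 387 and 261 at resolution 0.32 and 314 and 226 with 500 genes. Signs changed in these log2 fold changes, and the cause was not tested. For Slc1a1 they were -0.0755 over microglia-like cells with 500 genes, -0.24 (resolution 0.32) and -0.28 (500 genes) over neuroblast-like cells, and in oligodendrocyte-like cells over the mean -0.99 (0.32), -1.31 (500 genes) and -1.61 (mitochondrial limit). These oligodendrocyte-like values come from fits that kept the macrophage-like class, with which Slc1a1 could not be fitted in astrocyte-like cells. At resolution 0.32 and with 500 genes they were not called. Astrocyte-like Slc38a1 was 0.010 over macrophage-like cells (thinned), and 0.054 (DESeq2) and 0.39 (thinned) over the mean. Neuron-like cells over the mean had 0.42 (0.32) and 0.39 (500 genes) for Slc1a2, 0.0795 (library sizes alone), 0.13 (0.32) and 0.11 (500 genes) for Slc7a10, and 0.37 (0.32) and 0.26 (500 genes) for Slc7a11. For Crym, Slc1a2 was -0.015 (thinned), Slc1a3 -0.028 (0.32, and without the neuron-like cells), -0.052 (500 genes), -0.041 (mitochondrial limit), -0.13 (thinned) and -0.085 (UMI totals matched), Glud1 -0.0013 (500 genes) and -0.011 (mitochondrial limit), and Slc38a3 0.0032 (no gene filter).

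The share of astrocyte-like cells with a UMI, as the mean of the libraries, moved by more than 1 SD. At resolution 0.32 it was 1.36% for Slc1a1, 96.3% for Slc1a2, 89.3% for Slc1a3, 86.4% for Glul and 4.36% for Slc38a1. With 500 genes it was 1.08% for Slc1a1, 98.9% for Slc1a2, 94.2% for Slc1a3, 90.3% for Glul, 4.84% for Slc38a1 and 73.1% for Slc7a10. Under the mitochondrial limit it was 1.29% for Slc1a1, 98.0% for Slc1a2, 92.3% for Slc1a3, 90.3% for Glul, 64.4% for Glud1 and 4.70% for Slc38a1. Thinned it was 0.918% for Slc1a1, 95.2% for Slc1a2, 77.2% for Glul, 32.8% for Glud1, 2.64% for Slc38a1, 21.0% for Slc38a3, 43.8% for Slc7a10 and 23.1% for Slc7a11. Depth limits these shares: the median was 1622 and 2365 UMIs per astrocyte-like cell.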
